A study of Mus musculus with 4 samples.

Results

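The comparison described here is day 5 against day 4 of mouse gastruloid culture, across every gene. Its members are the cells of the day 4 and day 5 libraries that held at least 2000 unique molecular identifiers (UMIs, each a tag for 1 captured transcript) and in which mitochondrially encoded genes (mt- symbols) took under 20% of UMIs. These were 7202 of 7324 barcodes at day 4 and 7408 of 7794 at day 5, or 14610 of the 29190 cells that pass the same filter over the 4 libraries of the series. The UMIs of each gene were summed over the cells of a day and given as CPM, the gene's UMIs scaled to a common library total. Of 32286 genes in the reference, 24623 had a UMI in either library, and the 12412 with a mean of both CPM values of at least 1 were compared.

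Gastruloids are aggregates of embryonic stem cells that break symmetry, elongate and lay down germ layers in culture. The study used them to follow cardiac and skeletal muscle arising from cardiopharyngeal mesoderm, the early mesoderm that gives rise to heart and head muscles. Both groups came from the wild-type mouse embryonic stem cell line Zx1, were aggregated in the same way and had received a pulse of the Wnt agonist Chiron 2 days before the day 4 collection. Day 4 was the day on which bFGF, VEGF and ascorbic acid were added and shaking began, so the day 5 gastruloids had spent about a day in these factors and on the shaker. Whether the day 4 gastruloids were collected before or after the addition is not given in the sources used here. Time, factors, shaking and the preparation of each library therefore cannot be told apart. Each day is 1 library from pooled gastruloids of 1 line, with no replicate, so no test was possible. A gene is called raised where its day 5 CPM was at least 2 times its day 4 CPM and lowered where it was at most 0.5 times, and the 95% intervals of ratios (exact, from the counts) cover counting error only.

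The libraries were deep and alike in depth. They held 227281410 and 236125033 UMIs, with medians of 25335 and 28400.5 UMIs and 4708.5 and 5002 genes per cell at day 4 and day 5. The median mitochondrial share was 2.31% and 2.69%, and the median share of ribosomal protein genes was 34.8% and 33.1%. The 2 libraries had 13 barcodes in common. At this depth 1 UMI is worth 0.0044 CPM at day 4 and 0.00424 at day 5, so counting error is small for nearly every gene named. Shares of cells with a UMI are given after each cell was thinned to 5000 UMIs, which 7172 and 7244 cells could supply.

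In the mouse embryo, cells leave the epiblast through the primitive streak under Wnt, Nodal and FGF signals, pass through a nascent mesoderm state marked by the transcription factors Brachyury, Eomes and Mesp1, and then settle into cardiac, paraxial, endothelial or other fates. The streak genes are switched off as this happens, and muscle, vessel and blood genes come on. Signals for retinoic acid, Hedgehog and Notch pattern the mesoderm, and the Hox genes record position along the body axis.

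Between day 4 and day 5 the transcriptome shifted more often upward than downward past 2-fold. Of the 12412 genes, 1456 (11.7%) were raised and 722 (5.82%) were lowered, while 10234 stayed within 2-fold. The median log2 ratio was 0.02 and the quartiles were -0.39 and 0.49. Past 4-fold there were 435 raised and 122 lowered genes. The whole counting interval lay beyond 2-fold for 1252 of the raised and 574 of the lowered genes. Among the 7398 genes with a mean of at least 10 CPM, 453 were raised and 303 lowered, so most raised genes lay below that level. The raised genes together held 21763 CPM at day 4 and 58651 at day 5, and the lowered genes 23970 and 9324. In the day 6 library the same genes held 41888 and 20221 CPM. Since they were picked on their day 5 levels, these day 6 sums are a description only.

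**Figure D1:**
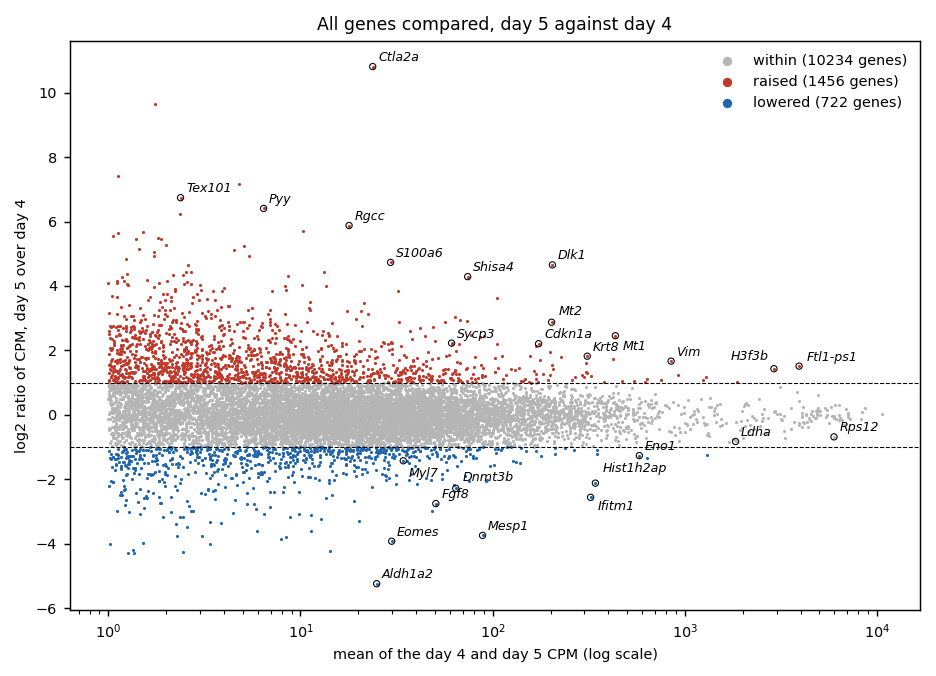
Log2 ratio of CPM (day 5 over day 4) against the mean of both CPM values on a log scale, 1 point per gene compared, with 1456 raised genes in red, 722 lowered in blue and 10234 within 2-fold in grey. Dashed lines mark 2-fold; the named genes are circled, with Ctla2a at the top (0.0264 and 47.5 CPM) and Aldh1a2 at the bottom (48.5 and 1.28 CPM).

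Ctla2a (ENSMUSG00000044258, chromosome 13, 60934155 to 60936625, mm10), which encodes a cysteine protease inhibitor, had the highest ratio. It had 6 UMIs in all at day 4 and 11211 at day 5, or 0.0264 and 47.5 CPM, a ratio of 1799 with a wide interval of 826 to 4902. Its close copy Ctla2b, a gene named for this likeness, went from 1 to 830 UMIs, and reads shared by the 2 copies could be split between them. At day 5 Ctla2a transcripts sat in few cells, with a UMI in 3.95% of thinned cells.

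Dlk1 (ENSMUSG00000040856, chromosome 12, 109452823 to 109463336), an imprinted membrane protein of the Notch ligand family, rose in far more cells. Its level was 15.6 CPM at day 4 and 393 CPM at day 5 (ratio 25.2, interval 24.4 to 26.1), and the share of cells with a UMI went from 6.6% to 66.2%. The level was 642 CPM at day 6 and 308 CPM at day 11. Shisa4, a transmembrane protein gene, rose from 7.21 to 141 CPM, and Hebp1, a haem-binding protein gene, from 15.7 to 196 CPM. Both were also widespread at day 5, with a UMI in 50.5% and 60.8% of cells against 3.75% and 7.21% at day 4.

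The other genes with the highest ratios at a mean of at least 10 CPM were mostly low at day 4. Rgcc, a cell cycle regulator, went from 0.598 to 35.2 CPM. Slc16a9, a carnitine and monocarboxylate transporter, went from 0.383 to 20.2 CPM. S100a6, a small calcium-binding protein, went from 2.13 to 56.7 CPM. These 3 were back at 1.13, 1.39 and 4.97 CPM in the day 6 library. Rln1, a relaxin hormone gene, had 1.17, 25.5 and 1.6 CPM at days 4, 5 and 6, and Psmb9, a subunit of the immunoproteasome, had 1.81, 20.6 and 0.282 CPM. Abca3 (a lipid transporter), Sat2 (an acetyltransferase of the polyamine family), Anxa3 (an annexin), Clu (the chaperone clusterin), Slc43a2 (an amino acid transporter) and Ica1 completed the list, with ratios between 9.47 and 16.4.

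At the other end stood genes of the streak and early mesoderm. Aldh1a2 (ENSMUSG00000013584, chromosome 9, 71215789 to 71296243), the main retinoic acid synthesising enzyme of the early embryo, had the lowest ratio, with 48.5 CPM at day 4 and 1.28 CPM at day 5 (0.0264, interval 0.0234 to 0.0296). The share of cells with a UMI of it went from 18.2% to 0.718%. Ptgds, a prostaglandin D synthase, fell from 26.9 to 1.44 CPM. Pdgfra, a growth factor receptor of mesenchyme, fell from 23.2 to 3.85 CPM and stood at 52.5 CPM at day 6. Ifitm1, an interferon-inducible membrane protein known from migrating mesoderm and germ cells, was the most abundant of this group, at 553 and 93.6 CPM, with a UMI in 83.2% of cells at day 4 and 31% at day 5.

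By absolute amount, the genes that gained most were abundant and broadly expressed. Ftl1-ps1, a processed copy of the ferritin light chain gene, went from 2040 to 5815 CPM and Ftl1 itself from 88 to 114 CPM, and since the copies are nearly identical their reads cannot be assigned with certainty. H3f3b, which encodes the replication-independent histone H3.3, went from 1573 to 4239 CPM, and Hmgb2, a chromatin protein, from 1234 to 2482 CPM. The losses were led by ribosomal protein and nucleolar genes whose ratios were modest: Rps12 had 7353 and 4577 CPM (ratio 0.622), Rps29 4146 and 2493 CPM (0.601) and Npm1 7422 and 6001 CPM (0.809). Rpl22l1, a paralog of Rpl22, was the only one of the 8 largest losses past 2-fold, at 1832 and 771 CPM.

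To describe biology rather than single genes, 39 lists of genes for lineages, pathways and cell functions were followed, and 9 more were added after the values had been seen. For each list the number of raised and lowered members is to be read against the 11.7% and 5.82% over all genes compared.

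The primitive streak and nascent mesoderm list fell nearly as a whole. All 19 members were compared, of which 17 were lowered and none raised, with a median log2 ratio of -2.75. Mesp1 (ENSMUSG00000030544, chromosome 7, 79792241 to 79793788), the transcription factor of the earliest cardiac and cranial mesoderm, had 165 CPM at day 4 and 12.3 CPM at day 5 (ratio 0.0746, interval 0.0718 to 0.0774), then 0.63 CPM at day 6. Eomes, the T-box factor that acts before Mesp1, had 56, 3.68 and 0.392 CPM. The share of cells with a UMI went from 38.2% to 5.18% for Mesp1 and from 16.1% to 1.49% for Eomes.

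Other members of that list followed. T, which encodes Brachyury, fell from 38.8 to 8.28 CPM, Mixl1 (a homeobox factor of the streak) from 21 to 1.73 CPM, Cdx1 (a caudal homeobox factor) from 14.8 to 1.02 CPM and Gsc (goosecoid, an organiser factor) from 11.5 to 1.37 CPM. Lhx1, a LIM homeobox factor, fell from 85.5 to 10.7 CPM, Fgf8 from 88.1 to 13 CPM, and Fst, which encodes the activin antagonist follistatin, from 36.6 to 3.71 CPM. Aplnr, the apelin receptor that guides migrating cardiac progenitors, fell from 20.4 to 2.38 CPM and its ligand gene Apln from 3.27 to 0.487 CPM. The 2 members within 2-fold were Cdx2, at 50.7 and 30.3 CPM, and Wnt3, at 16.9 and 15.9 CPM.

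Paraxial mesoderm, the source of somites, was low on both days and lower on day 5. Of 16 listed genes 8 were compared, 6 were lowered and none raised, with a median log2 ratio of -1.72. Tbx6, the T-box factor of presomitic mesoderm, had 6.12 CPM at day 4 and 0.614 CPM at day 5, the Notch ligands Dll3 and Dll1 had 22.6 and 5.61, and 5.68 and 1.71 CPM, and the segmentation clock gene Hes7 had 8 and 2.46 CPM. In the day 6 library the summed level of the list was 165 CPM, against 72.1 at day 4 and 26.9 at day 5. Neural ectoderm genes were also down, with 5 of 8 compared genes lowered and 1 raised. Crabp1, a retinoic acid binding protein also found in mesenchyme, went from 150 to 35.9 CPM, and the neural factors Zic2, Fabp7, Sox3 and Hes5 were at or below 16.5 CPM on either day. Irx3, an Iroquois homeobox factor, was raised, from 13.9 to 32.9 CPM. Sox1, Pax6 and Sox10, defining markers of neural tissue and crest, were too low to be compared.

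The pluripotency list fell in part. Of 23 members, all compared, 8 were lowered, none was raised and the median log2 ratio was -0.68. Among those that fell were genes of the formative epiblast. Dnmt3b, a de novo DNA methyltransferase, had 107 and 21.9 CPM, Pou5f1 (Oct4) 67 and 26.5 CPM, Tdgf1 (the Nodal co-receptor Cripto) 59 and 14.5 CPM, Otx2 11 and 0.906 CPM, and Fgf5 4.69 and 0.424 CPM. The other lowered members were L1td1, Pim2 and Fgf4. Some genes known from naive cells lay within 2-fold: Zfp42 (Rex1) had 21.5 and 18.9 CPM, Dppa5a 302 and 318 CPM and Tfcp2l1 2.29 and 4.3 CPM. Utf1 (21.4 and 21.2 CPM) and Pou3f1 also lay within 2-fold. The list was not divided into naive and formative members beforehand. Dppa5a kept its level in fewer cells, since the share of cells with a UMI went from 20.7% to 9.75% and the 5% of cells with most of it held 78.7% of its UMIs at day 4 and 95.3% at day 5.

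**Figure D2:**
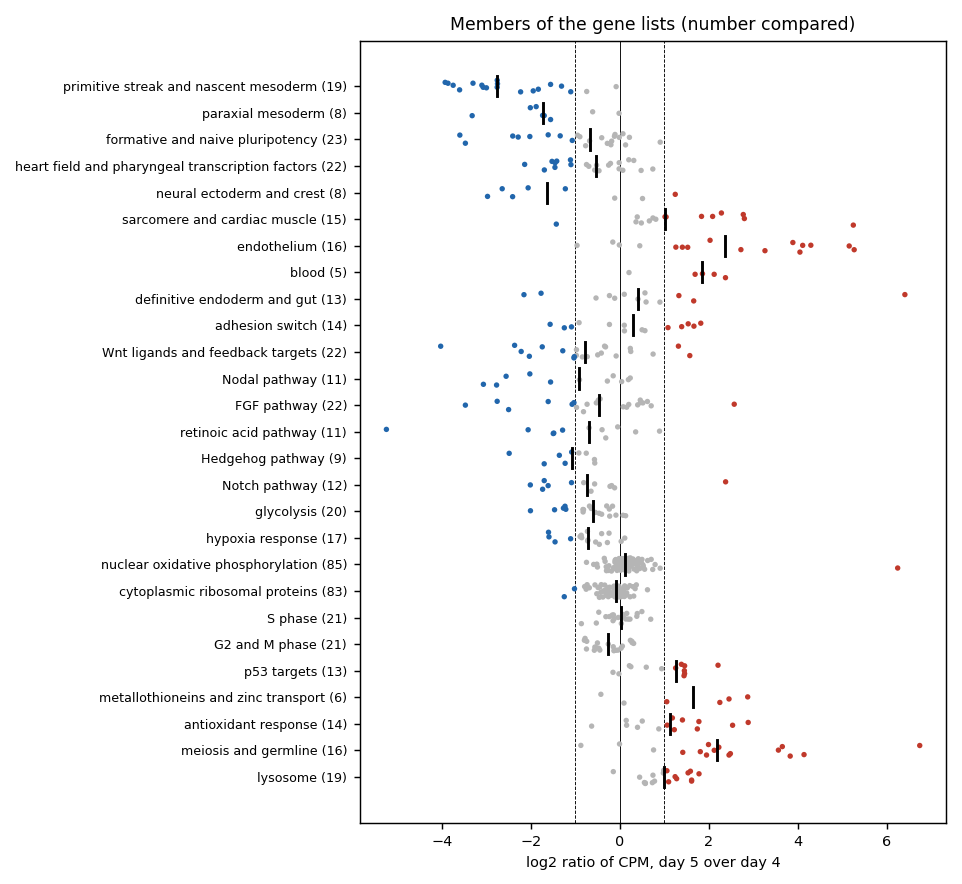
Log2 ratio of CPM (day 5 over day 4) of each compared member of 27 gene lists, with raised members in red, lowered in blue and the others in grey; black bars are list medians, dashed lines mark 2-fold and the number compared stands after each name. The primitive streak list lies furthest left (median -2.75) and the endothelium (2.38) and meiosis lists (2.17) furthest right, while cell cycle, ribosomal and oxidative phosphorylation lists centre near 0.

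Signalling genes fell more often than they rose in the Nodal, Wnt, FGF, retinoic acid, Hedgehog and Notch lists. In the Nodal list 5 of 11 were lowered and none raised (median -0.91): the feedback inhibitors Lefty2 and Lefty1 went from 17.5 to 2.09 and from 9.18 to 1.35 CPM, and the co-receptor gene Cfc1 from 151 to 51.5 CPM. In the Wnt list 8 of 22 were lowered and 2 raised (median -0.79), among them the target Sp5, at 29.1 and 8.7 CPM, and Rspo3, a secreted enhancer of Wnt signalling, at 103 and 42.5 CPM. The Wnt inhibitor Sfrp1 was at 20 CPM, 4.89 CPM and, in the day 6 library, 149 CPM. Lef1, a nuclear effector of the pathway, stayed within 2-fold at 85 and 63.8 CPM, and Wnt11, a non-canonical ligand of heart development, rose from 2.06 to 5.13 CPM.

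In the FGF list 6 of 22 were lowered and 1 raised (median -0.46). The 6 were Fgf4, Fgf5, Fgf8, Fgf10 (24.8 and 4.39 CPM), Etv1 and Spry4, while the receptor Fgfr1 had 69.5 and 51.2 CPM. The raised gene was Fgf18, from 0.515 to 3.06 CPM. The retinoic acid list lost 5 of 11 members past 2-fold (median -0.69). Besides Aldh1a2 and Crabp1 these included Cyp26a1, which degrades retinoic acid (43.8 and 18 CPM), and the retinol uptake receptor gene Stra6 (2.26 and 0.8 CPM). The receptors Rara and Rarg did not pass 2-fold.

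Hedgehog genes had the lowest median of the 8 signalling lists, at -1.08, with 5 of 9 lowered and none raised. Ptch1, the receptor and a direct target, went from 35.2 to 13.7 CPM, Gli1, a target and effector, from 1.99 to 0.356 CPM, Gli3 from 37.9 to 17.9 CPM and the co-receptor gene Gas1 from 42.7 to 18.2 CPM. The ligand genes Shh, Ihh and Dhh were too low to be compared. Of 12 Notch genes 5 were lowered and 1 raised (median -0.73); the raised gene was the ligand Jag2, at 1.65 and 8.58 CPM, and the lowered ones included the receptor Notch3 (29.7 and 14 CPM) and the target Hey1 (12.5 and 4.08 CPM).

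BMP genes moved little as a list, with 2 of 17 raised, 2 lowered and a median of -0.16. The targets Id1 and Id3 stayed near their levels, at 292 and 261 CPM and at 416 and 495 CPM. Bambi, a decoy receptor, rose from 92.5 to 200 CPM and Bmper, a secreted modulator, fell from 7.06 to 0.682 CPM. In the VEGF list, 3 of 12 were lowered and 1 raised (median -0.70). Vegfc had 9.74 and 3.96 CPM, and the raised gene was its receptor Flt4, at 1.1 and 2.48 CPM.

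Heart field and pharyngeal transcription factors were present on both days and none was raised. Of 27 listed genes 22 were compared and 8 were lowered, with a median log2 ratio of -0.54. Foxf1, a forkhead factor of splanchnic mesoderm, fell from 51.1 to 11.6 CPM, Gata4 from 29.6 to 11.1 CPM, Tbx3 from 99.4 to 46.1 CPM and Mef2c from 13 to 4.72 CPM. Hand1, a bHLH factor of early heart and extraembryonic mesoderm, was the most abundant member at 246 and 213 CPM, Gata6 had 78.4 and 54.6 CPM, Hand2 59.9 and 59.3 CPM and Isl1, the LIM homeobox factor of the second heart field, 21 and 12.9 CPM. Nkx2-5, at 0.194 and 0.301 CPM, Tbx1, at 0.532 and 1.27 CPM, and Myocd, at 0.352 and 0.233 CPM, were too low to be compared. At day 6 Gata4 was at 33.8 CPM, Mef2c at 139 CPM and Nkx2-5 at 10.4 CPM.

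Contractile genes rose as a list, several of them from very low levels. The list summed to 459 CPM at day 4 and 714 CPM at day 5. Of 24 listed genes 15 were compared, 8 were raised and 1 lowered, with a median log2 ratio of 1.02. Tnnc1 (cardiac troponin C) went from 1.74 to 12.1 CPM, Tnni1 (slow skeletal troponin I) from 5.68 to 20.3 CPM, Actc1 (cardiac actin) from 2.51 to 10.7 CPM and Tnnt2 (cardiac troponin T) from 0.726 to 3.54 CPM. The atrial myosin light chain gene Myl7 moved the other way, at 49.9 and 18.6 CPM. These day 5 levels were small beside those at day 6, when Tnnc1 was at 150 CPM, Actc1 at 497 CPM and Myl7 at 1052 CPM. Cox6a2, the muscle form of a cytochrome oxidase subunit, rose from 0.0616 to 4.68 CPM and was the only raised member of 85 nuclear oxidative phosphorylation genes.

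Endothelial genes had the highest list median of those drawn up first. Of 20 genes 16 were compared, 12 were raised and none was lowered (median 2.38). Cdh5, which encodes VE-cadherin, went from 0.101 to 3.9 CPM (ratio 38.5, interval 25.5 to 61.1), Ecscr, an endothelial surface regulator, from 1.06 to 15.8 CPM, Esam, a junction protein, from 0.308 to 5.1 CPM, Plvap, the vesicle-associated diaphragm protein, from 0.986 to 6.51 CPM, and the secreted factor gene Egfl7 from 46.5 to 112 CPM. Early genes of the lineage did not pass 2-fold, with Kdr (VEGF receptor 2) at 53.4 and 27.5 CPM, Etv2 at 18.6 and 18.5 CPM and Flt1 at 20.1 and 18 CPM. In summed libraries, more cells of a type and more RNA per cell cannot be told apart.

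Of the 5 blood genes compared, the early factors Lmo2 (5.98 and 19.3 CPM), Tal1 (1.7 and 6.17 CPM) and Gata2 (1.47 and 6.39 CPM) and the platelet integrin gene Itga2b (0.449 and 2.33 CPM) were raised. Runx1 had 5.61 and 6.48 CPM, and the globins, Gata1 and Klf1 were too low to be compared.

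Endoderm was mixed. Of 13 compared genes 3 were raised and 2 lowered (median 0.41). The median was 1.01 when cells with pluripotency, endoderm or endothelium markers were left out and 0.16 relative to genes of like transcript length. Pyy, a gut hormone, went from 0.15 to 12.7 CPM (ratio 84.9), Krt19 from 9.15 to 28.9 CPM and Foxa3 from 2.15 to 5.39 CPM. Trh, thyrotropin-releasing hormone, an early endoderm transcript, fell from 65.6 to 14.7 CPM and Foxa1 from 2.71 to 0.796 CPM. Epcam had 63.7 and 94.3 CPM and Spink1 63 and 118 CPM. Of 6 genes of visceral endoderm and liver, 5 were raised, among them Ttr (transthyretin, 2.67 and 13.8 CPM), Rbp4 (a retinol carrier, 4.84 and 13.2 CPM) and the homeobox gene Hhex (3.67 and 12 CPM), while Cubn, a receptor of visceral endoderm, was lowered, from 2.02 to 0.398 CPM. Of 7 trophoblast genes 1 was raised (Krt7, 2.27 and 11.9 CPM) and 1 lowered (Plac1, 8.11 and 1.93 CPM), and of 7 primordial germ cell genes 2 were raised and 1 lowered.

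In the adhesion list, 3 intermediate filament genes rose, as did a cadherin and a claudin gene, and 3 other adhesion and matrix genes fell. Vim, the mesenchymal filament protein vimentin, went from 406 to 1289 CPM (ratio 3.17, interval 3.15 to 3.2), while the epithelial keratin genes Krt8 and Krt18 went from 137 to 484 and from 165 to 351 CPM. At day 6 Vim was at 1488 CPM and Krt8 and Krt18 at 77 and 59.2 CPM. The N-cadherin gene Cdh2 went from 87.1 to 36.7 CPM, Cdh11 from 43.3 to 14.6 CPM and fibronectin (Fn1) from 361 to 170 CPM. In all, 5 of 14 adhesion genes were raised and 3 lowered. Of 16 mesenchyme transcription factors none was raised and 1, Pbx3, was lowered (45.7 and 19.6 CPM).

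Matrix genes showed a few clear gains. Sparc, a collagen-binding matrix protein, rose from 108 to 258 CPM, Serpinh1, the collagen chaperone HSP47, from 172 to 407 CPM, Col18a1 from 32.7 to 79.7 CPM, Nid1 (nidogen) from 4.9 to 14.5 CPM and Tnc (tenascin C) from 0.502 to 3.87 CPM. By list, 7 of 20 matrix genes were raised and 1 lowered, 3 of 18 compared collagen chains were raised and 4 lowered, and 2 of 12 genes for collagen hydroxylation and crosslinking were raised and none lowered. Among the collagen hydroxylase genes, whose enzymes use ascorbate as a cofactor, Plod1, a lysyl hydroxylase, was raised, from 5.64 to 12.3 CPM. The lysyl hydroxylase gene Plod2 had 43.2 and 45.6 CPM and the prolyl hydroxylase gene P4ha1 68.8 and 56.7 CPM.

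Most Hox genes lay within 2-fold. Of 39 genes 28 were compared, 5 were raised and 2 lowered (median 0.19). The 2 lowered genes were both of paralog group 1, Hoxb1 (71.7 and 18.2 CPM) and Hoxd1 (9.06 and 3.16 CPM). The raised genes, of paralog groups 5 to 9, were Hoxc5 (0.717 and 2.42 CPM), Hoxb7 (3.32 and 8.74 CPM), Hoxc8 (6.07 and 13.7 CPM), Hoxd8 (3.52 and 7.45 CPM) and Hoxc9 (3.69 and 9.05 CPM). Hoxb2, the most abundant, had 76.6 and 78.5 CPM, and Hoxb4 had 20 and 22.8 CPM.

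Imprinted genes included Dlk1 and further members that moved in both directions, with 4 of 22 raised and 3 lowered. Mest went from 117 to 278 CPM, Ndn (necdin) from 51.2 to 110 CPM and Igf2r, the receptor that clears IGF2, from 42.5 to 118 CPM. Phlda2, a growth suppressor of the placenta, fell from 477 to 222 CPM and Peg10 from 84.3 to 34.1 CPM, while Peg3, at 691 and 441 CPM, and Gnas, at 906 and 1075 CPM, did not pass 2-fold.

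Glycolysis genes were lower at day 5. All 20 were compared, 5 were lowered and none raised (median -0.59). Hk2, the inducible hexokinase, had 87.6 CPM at day 4 and 21.8 CPM at day 5 (ratio 0.249, interval 0.241 to 0.256), and the share of cells with a UMI went from 33.5% to 10.1%. Pfkl, a phosphofructokinase, went from 194 to 70.2 CPM, Eno1 (enolase) from 818 to 340 CPM, Pfkp from 40.3 to 17.2 CPM and the lactate exporter gene Slc16a3 from 106 to 45.7 CPM. Ldha, lactate dehydrogenase A, stayed just within 2-fold at 2348 and 1323 CPM, while Gapdh had 2841 and 2992 CPM. The list summed to 12619 and 9210 CPM, and to 16525 and 17447 CPM in the libraries of days 6 and 11, so day 5 was the lowest of the 4 libraries.

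Of 17 compared targets of the hypoxia response, a list that shares Slc2a1 with the glycolysis list, 4 were lowered, 13 lay within 2-fold and none was raised (median -0.72). Bnip3, which drives the removal of mitochondria, had 145, 48.3 and 214 CPM on days 4 to 6, and Egln3, an oxygen-sensing prolyl hydroxylase, had 21.4, 7.04 and 22.3 CPM. Egln1 had 113 and 52.3 CPM and Adm (adrenomedullin) 1.67 and 0.61 CPM.

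The promoters of Ldha and Bnip3 are shown because both genes carry the core letters ACGTG, the sequence bound by hypoxia-inducible factors, close to their starts. Each line is the 250 bases before a RefSeq transcript start on GRCm38.p6, 5′ to 3′ on the gene's strand, with ACGTG on either strand in capitals. Overlapping matches on both strands read CACGTG. Ldha lies at chr7:46845554-46845803 on the plus strand and Bnip3 at chr7:138909507-138909756 on the minus strand.
Ldha: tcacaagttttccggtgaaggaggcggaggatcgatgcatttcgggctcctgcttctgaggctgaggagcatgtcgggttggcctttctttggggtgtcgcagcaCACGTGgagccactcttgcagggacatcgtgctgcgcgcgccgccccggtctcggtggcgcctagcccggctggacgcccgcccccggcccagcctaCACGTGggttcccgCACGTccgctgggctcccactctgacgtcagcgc
Bnip3: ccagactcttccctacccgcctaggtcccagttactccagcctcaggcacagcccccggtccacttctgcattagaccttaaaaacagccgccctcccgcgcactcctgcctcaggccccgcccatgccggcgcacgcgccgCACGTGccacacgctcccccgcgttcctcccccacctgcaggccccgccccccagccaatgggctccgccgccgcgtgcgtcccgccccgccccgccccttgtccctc
A second RefSeq start of Ldha, with the window chr7:46846832-46847081 before it, has 0 matches and is not printed. The matches in Ldha begin 145, 144, 48, 47 and 34 bases before the start, and those in Bnip3 108 and 107 bases before it. ACGTG was found before the starts of 10 of the 14 hypoxia genes and 10 of the 19 glycolysis genes with a promoter in the table, against 25.7% of 9664 compared genes and 16.6% of all 32851 promoters. The letters were not particular to genes that fell: they stood before 18.5% of the lowered and 23.3% of the raised genes, and before 2 of the 5 lowered glycolysis genes. Among the hypoxia genes, 3 lowered ones had them and 1 did not, and of those within 2-fold 7 had them and 3 did not. Such a match is a description of letters and does not mark a bound site.

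Of 85 nuclear oxidative phosphorylation genes 1 was raised and none lowered (median 0.13), and of 13 mitochondrially encoded genes 1, mt-Nd6, was lowered, from 58.5 to 16.3 CPM. mt-Nd6 is the member encoded on the opposite strand. Of 83 ribosomal protein genes 2 were lowered, Rpl22l1 among them, with a median of -0.09. Of 19 genes of the cholesterol list 3 were lowered, among them Nsdhl, a sterol synthesis enzyme (50.1 and 21.4 CPM). None of the 21 S phase genes and none of the 21 genes of G2 and M phase passed 2-fold, with medians of 0.04 and -0.26. None of the 10 LIN28 and let-7 genes did either, at a median of -0.64, where Lin28a had 99.1 and 51.3 CPM and Hmga2 546 and 318 CPM.

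The p53 targets were among the clearest gains. Of 13 compared, 7 were raised and none lowered (median 1.25). Cdkn1a (ENSMUSG00000023067, chromosome 17, 29090976 to 29100727), which encodes the cyclin-dependent kinase inhibitor p21, had 61.7 CPM at day 4 and 285 CPM at day 5 (ratio 4.62, interval 4.54 to 4.71), and 60.1 CPM at day 6. Its share of cells with a UMI went from 24.1% to 65%. Ccng1 (cyclin G1) had 73.3, 201 and 61.6 CPM on these days, Phlda3, an Akt inhibitor, 47.8, 130 and 44 CPM, and Mdm2, the ubiquitin ligase for p53, 32.4, 77.3 and 36 CPM. Btg2, an antiproliferative factor, and Bbc3, which encodes the death protein PUMA, were at 69.1 and 54.5 CPM at day 5 and at 25.1 and 20.9 CPM at day 4. Bax, a further death gene, had 384 and 379 CPM. More barcodes of day 5 than of day 4 were removed for few UMIs (302 and 116) or a high mitochondrial share (170 and 70), and the part of this in the p53 and stress results was not tested.

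Metallothionein genes, whose small proteins bind zinc and copper, rose more than 5-fold. This and the next 5 lists were added after the values were seen, so their counts are a description of how they were chosen. Mt1 (ENSMUSG00000031765, chromosome 8, 94179082 to 94180327) had 134 and 736 CPM (ratio 5.48, interval 5.42 to 5.55), and in the later libraries, of days 6 and 11, 78.4 and 149 CPM. Mt2, its neighbour on chromosome 8, had 48.6, 356, 7.33 and 8.73 CPM. The share of cells with a UMI went from 18.9% to 68.2% for Mt1 and from 9.37% to 61.4% for Mt2. The zinc exporter gene Slc30a1 was also raised, at 4.46 and 9.27 CPM, as was the manganese transporter gene Slc30a10, at 0.933 and 4.43 CPM. Mtf1, the metal-sensing transcription factor, had 14.6 and 15.6 CPM.

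Antioxidant genes moved in the same direction, with 8 of 14 raised and none lowered (median 1.12). Gclm, a subunit of the glutathione-synthesising ligase, had 46.3, 159 and 36.3 CPM on days 4 to 6. Txn1 (thioredoxin) had 792, 1798 and 756 CPM, Srxn1 (sulfiredoxin) 4.09, 23.7 and 3.75 CPM, and Hmox1 (haem oxygenase) 22.2, 74.2 and 34.2 CPM. Nqo1, a quinone reductase, had 1 and 7.42 CPM at days 4 and 5. Fth1, the ferritin heavy chain, went from 2216 to 4069 CPM, which did not pass 2-fold, and Gclc, the partner of Gclm, had 32.6 and 36.1 CPM.

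Lysosomal genes rose in 9 of 19 cases and fell in none (median 0.99). Cstb, a cytosolic inhibitor of cathepsins, went from 102 to 351 CPM, the membrane protein gene Cd63 from 151 to 462 CPM, the protease gene Ctsd (cathepsin D) from 44.7 to 130 CPM and Hexa, a hexosaminidase subunit, from 33.2 to 102 CPM. Of the proton pump subunits Atp6v1h went from 21.7 to 65.3 CPM and Atp6v1a from 69.5 to 164 CPM. At day 6 Cstb was at 108 CPM and Cd63 at 322 CPM. Of 14 compared annexin and S100 genes 9 were raised and 1 lowered (median 1.35), Anxa2 from 58.5 to 146 CPM and Anxa5 from 21.9 to 60.5 CPM among them.

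Antigen processing genes were raised in 4 of 10 cases and lowered in none (median 0.71). Besides Psmb9, the peptide transporter gene Tap1 went from 2.86 to 17.3 CPM and stood at 0.961 CPM at day 6, and Ifi30, a lysosomal thiol reductase, went from 23.5 to 130 CPM. The presenting molecules themselves did not pass 2-fold, with H2-K1 at 20.3 and 12.8 CPM and B2m at 28.2 and 43 CPM. Of 14 integrated stress response genes 2 were raised and 3 lowered (median -0.22): Ddit3, a stress transcription factor, had 8.42 and 24.4 CPM, Chac1, which degrades glutathione, 7.27 and 2.57 CPM, and the master factor gene Atf4 83.5 and 58.4 CPM. Among 16 immediate early and heat shock genes, a list drawn up first, 4 were raised and 2 lowered. Hspa1a, an inducible chaperone, had 0.488 and 4.34 CPM, Junb 18.7 and 47 CPM, Fos did not pass 2-fold, and the chaperone gene Hsph1 fell from 83.7 to 30.1 CPM.

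**Figure D3:**
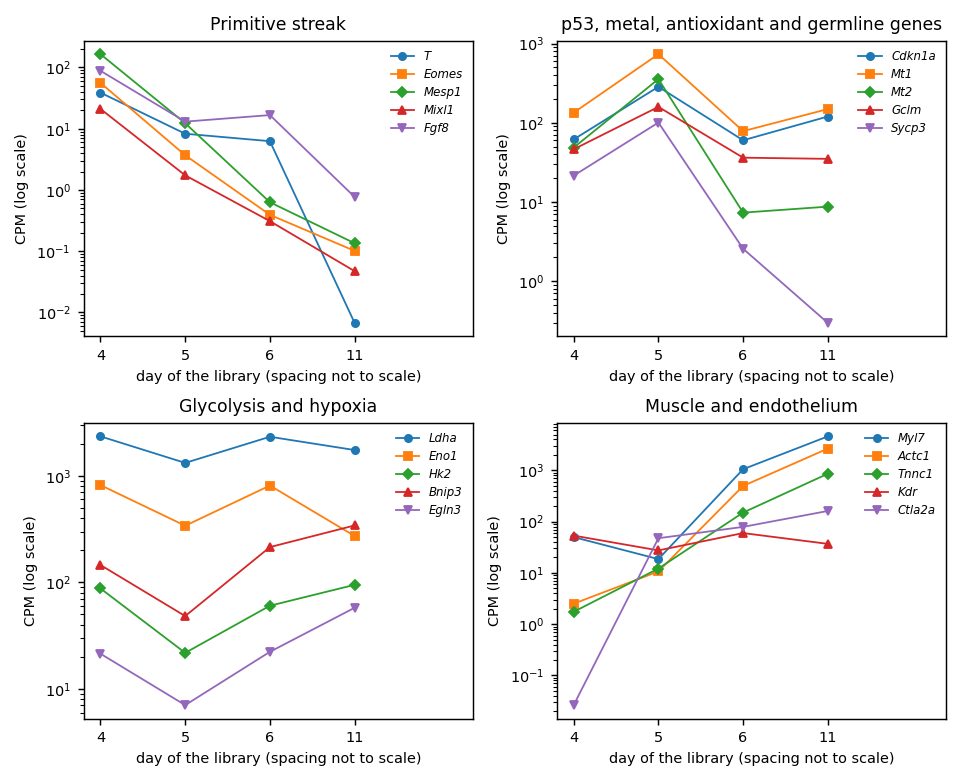
CPM on a log scale in the day 4, 5, 6 and 11 libraries (1 library a day, points joined for reading, days not to scale) for 4 sets of 5 genes. Cdkn1a, Mt1, Mt2, Gclm and Sycp3 were highest at day 5 (285, 736, 356, 159 and 101 CPM), Ldha, Hk2, Bnip3 and Egln3 were lowest there, and the streak genes fell from day 4.

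A group of meiosis and germline genes rose at day 5, and this list too was chosen after its values were seen. Of 22 genes 16 were compared, 13 were raised and none lowered (median 2.17). Sycp3, a protein of the synaptonemal complex that holds paired chromosomes together, had 21.5 and 101 CPM (ratio 4.68, interval 4.54 to 4.83), then 2.56 and 0.297 CPM in the libraries of days 6 and 11. Smc1b, a meiotic cohesin, had 0.933, 13.3 and 0.514 CPM at days 4 to 6, Stag3, a further meiotic cohesin, 3.87, 13.6 and 3.11 CPM, and Rbm46, an RNA-binding protein of germ cells, 4.35, 23.9 and 6.27 CPM. Tex101, a germ cell surface protein, rose from 0.044 to 4.71 CPM, Hormad1, a protein of meiotic chromosome axes, from 0.308 to 3.65 CPM, Mael, of the piRNA pathway, from 0.242 to 3.04 CPM, Ddx4 from 1.64 to 4.38 CPM and Dazl from 0.436 to 1.9 CPM. The meiotic inducer Stra8 stayed low at 0.0748 and 0.377 CPM, and Syce2 had 77.9 and 77.6 CPM. Of the other primordial germ cell genes, Dnd1, an RNA-binding protein, was lowered, from 5.34 to 2.02 CPM, and Dppa3 and Kit lay within 2-fold, Dppa3 at 12.2 and 8.42 CPM and Kit at 6.28 and 10.5 CPM.

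Promoters of 3 of these germline genes and of Ctsd are shown because the E-box CACGTG, which reads the same on both strands, is common in the germline list. As before, each line is the 250 bases before the RefSeq start on GRCm38.p6, 5′ to 3′ on the gene's strand, with CACGTG in capitals. Sycp3 lies at chr10:88459337-88459586 (plus strand), Stag3 at chr5:138280259-138280508 (plus), Slc25a31, a mitochondrial ADP/ATP carrier of germ cells, at chr3:40708621-40708870 (plus) and Ctsd at chr7:142387828-142388077 (minus).
Sycp3: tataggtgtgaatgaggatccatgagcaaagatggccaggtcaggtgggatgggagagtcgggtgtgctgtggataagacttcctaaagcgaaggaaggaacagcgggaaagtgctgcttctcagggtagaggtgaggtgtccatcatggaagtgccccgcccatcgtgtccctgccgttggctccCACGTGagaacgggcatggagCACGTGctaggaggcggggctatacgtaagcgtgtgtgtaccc
Stag3: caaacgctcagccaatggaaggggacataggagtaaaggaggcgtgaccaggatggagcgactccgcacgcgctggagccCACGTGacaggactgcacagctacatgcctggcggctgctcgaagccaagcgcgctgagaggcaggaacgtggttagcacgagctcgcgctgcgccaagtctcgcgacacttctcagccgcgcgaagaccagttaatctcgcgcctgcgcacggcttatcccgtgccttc
Slc25a31: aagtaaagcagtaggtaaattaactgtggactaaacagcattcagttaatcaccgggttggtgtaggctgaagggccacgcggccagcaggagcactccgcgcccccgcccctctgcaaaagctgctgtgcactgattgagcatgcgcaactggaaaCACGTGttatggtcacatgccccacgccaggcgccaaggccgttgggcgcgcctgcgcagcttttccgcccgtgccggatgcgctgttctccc
Ctsd: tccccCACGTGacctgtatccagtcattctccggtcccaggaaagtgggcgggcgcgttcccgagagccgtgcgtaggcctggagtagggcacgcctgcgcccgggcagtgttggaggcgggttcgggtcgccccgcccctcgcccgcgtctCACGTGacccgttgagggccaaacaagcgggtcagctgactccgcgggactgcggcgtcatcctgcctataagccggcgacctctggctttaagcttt
The E-box begins 64 and 43 bases before the start of Sycp3, 170 before Stag3, 93 before Slc25a31, and 245 and 98 before Ctsd. It was present for 10 of the 16 compared germline genes and for 5 of the 14 lysosomal genes with a promoter in the table. Of the germline genes, 9 raised and 1 within 2-fold had it, and 4 raised and 2 within 2-fold did not. Over 9664 compared genes the share with the E-box was 10.2%, over 1088 raised genes 10.1%, over 520 lowered genes 5.96% and over all 32851 promoters 6.02%. Every CACGTG also holds ACGTG, which was found for 13 of the 16 germline genes and 7 of the 14 lysosomal genes.

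Of 18 DNA methylation and Polycomb genes 3 were lowered and none raised (median -0.47), namely Dnmt3b, Dnmt3a (32.1 and 12.8 CPM) and the Polycomb gene Cbx2 (23.8 and 10.7 CPM), while the maintenance methyltransferase gene Dnmt1 had 116 and 88.2 CPM. Of 46 compared replication-dependent histone genes, an added list, 13 were lowered and 5 raised (median -0.54). Hist1h2ap had 556 and 128 CPM and Hist1h2ae 149 and 36.8 CPM, against 1.7 and 10.5 CPM for Hist1h2bk. The copies of these genes are nearly identical and their reads may be divided among them, and most of their transcripts lack the poly(A) tail that the library method captures. Of 17 host genes of small nucleolar RNAs, likewise added, 3 were raised and 4 lowered, with Gas5 at 796 and 1698 CPM and Snhg1 at 306 and 632 CPM on the one side and Snhg4 at 99.6 and 36.5 CPM on the other.

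To see which changes ran through the aggregate and which sat in single lineages, cells were set apart by markers after thinning to 5000 UMIs, where a set needed a UMI from at least 3 of its markers. The markers were Pou5f1, Sox2, Utf1, Dppa5a, Tdgf1 and Fgf5 for pluripotency, Sox17, Foxa2, Epcam, Cdh1 and Trh for endoderm, and Kdr, Cdh5, Pecam1, Etv2 and Egfl7 for endothelium. The sets held 519 and 312 cells for pluripotency at days 4 and 5, 335 and 197 for endoderm, 44 and 197 for endothelium, and 6215 and 6531 for all other cells. A further 59 and 7 cells met 2 sets and were left out. Cells 1 marker short of a set were numerous (607 and 131 for pluripotency, 359 and 436 for endoderm, 446 and 379 for endothelium), so the sets are ranges and not cell types. The levels of the markers themselves within a set are fixed by this choice. Each set was drawn separately on each day, so it is not 1 population followed over time, and whether its make-up differed between days was not tested. Over all genes compared within a set, 10.5% were raised and 7.77% lowered in pluripotency cells, 15.2% and 7.7% in endoderm cells, 14.9% and 12.4% in endothelium cells, and 12.3% and 5.92% in other cells.

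The loss of streak genes was seen in all 4 sets, with list medians of -2.56 in other cells, -2.92 in pluripotency cells, -2.46 in endoderm cells and -3.62 in endothelium cells. Glycolysis was lower in all 4 as well, with medians from -0.76 to -0.57. Hk2 had 85.2 and 21.4 CPM in other cells, 95.7 and 24.7 in pluripotency cells, 111 and 21.8 in endoderm cells and 96.6 and 25.5 in endothelium cells. The p53 list had medians of 1.28 in other, 1.49 in endoderm and 1.28 in endothelium cells and 0.38 in pluripotency cells. Cdkn1a was at 54.2 and 288 CPM in other cells and at 127 and 199 CPM in pluripotency cells, higher than in other cells at day 4 and lower at day 5. The antioxidant list, chosen after its values were seen, stood likewise at 1.22, 1.01, 1.22 and 0.57. Of its 14 members 1 was raised in pluripotency cells, near the 10.5% of all genes there, and 8 in other cells, where 12.3% of all genes were raised.

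**Figure D4:**
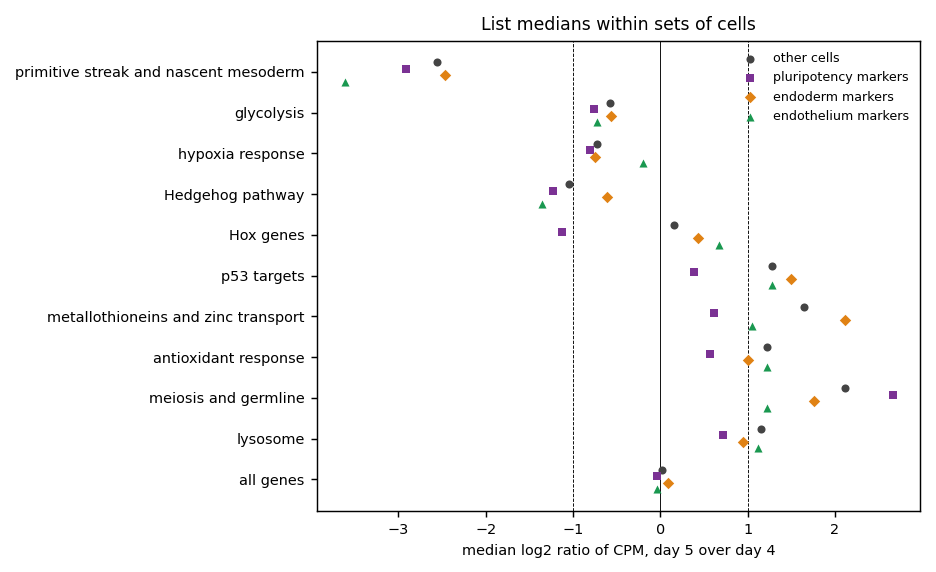
Median log2 ratio of CPM (day 5 over day 4) of 11 entries, 10 gene lists and all genes, within the 4 sets of cells: other cells (circles), and cells with pluripotency (squares), endoderm (diamonds) or endothelium markers (triangles, 44 cells at day 4). Streak and glycolysis medians lie below 0 and lysosome, antioxidant and germline medians above 0 in each set, while the Hox median is -1.13 in the pluripotency set and between 0.15 and 0.67 in the others.

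Metallothionein was already high in pluripotency cells at day 4. Mt1 stood there at 848 CPM, with a UMI in 73.8% of cells (interval 69.8% to 77.5%), against 61.9 CPM and 13.4% of other cells. At day 5 the levels were 2923 CPM in pluripotency cells, 601 in other cells, 1029 in endoderm cells and 457 in endothelium cells, and the shares were 98.7%, 66.6%, 83.8% and 58.4%. Dlk1 showed the reverse order, with 75.4 CPM in pluripotency cells and 424 CPM in other cells at day 5, and shares of 15.7% and 69.5%. Hebp1 was widespread, at 201 CPM in other cells, 97.1 in pluripotency, 243 in endoderm and 181 in endothelium cells.

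Of the germline genes compared in each set, 14 of 16 were raised in pluripotency, 7 of 10 in other, 7 of 11 in endoderm and 4 of 7 in endothelium cells, against 10.5%, 12.3%, 15.2% and 14.9% of all genes in these sets. The list was chosen after its values were seen, and a member needed a mean of 1 CPM within a set to be compared there. A gene near 0 at day 4 thus entered a set through its day 5 level, and the counts only describe the choice. Not all germline genes were highest in pluripotency cells, since Rbm46 was at 10.6 CPM there and 24.8 CPM in other cells at day 5. Sycp3 went from 69.8 to 486 CPM in pluripotency cells and from 16.5 to 76.7 CPM in other cells, and the share of cells with a UMI went from 24.3% to 82.4% and from 6.97% to 22%. Tex101 had no UMI in the 519 thinned pluripotency cells of day 4, which allows a share of cells with a UMI of up to 0.578% (3 cells of 519), and one in 18.6% of the 312 cells of day 5 (interval 14.4% to 23.4%). In other cells its share at day 5 was 0.919%. Free RNA in the droplets can give a UMI to a cell that does not make a transcript. As a rough gauge, Dppa5a, a pluripotency gene, had a UMI in 18.2% of the 44 endothelium cells at day 4 (interval 8.19% to 32.7%). At day 5 its share was 2.54%, and Ecscr, an endothelial gene, had a UMI in 1.28% of pluripotency cells. Free RNA and a cell's own transcript cannot be told apart in these shares. Every cell counted held 5000 UMIs, and the median depths at day 5 before thinning were 34146 (pluripotency) and 31339 (endothelium).

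Vessel genes were higher at day 5 within the endothelium set and outside it. Leaving out the markers of the set, 11 of 11 genes of the endothelium list compared there were raised (median 3.28). A gene needed a mean of 1 CPM within a set to be compared there, so one very low at day 4 entered through its day 5 level. The cells of each day were also picked by vessel markers, and of these Cdh5 was far lower in the day 4 library. How far the 11 genes follow this choice of cells was not tested, and their count is a description only. In other cells the endothelium markers were kept in and are limited by the choice of cells. There 8 of 13 list genes were raised and 1 lowered (median 1.18), against 12.3% and 5.92% of all genes. Other cells include cells 1 endothelium marker short of the set, and their part in this rise was not tested. Over the 16 list members compared in the whole libraries, the median without marker cells was 2.44. Ctla2a had 0.68 CPM in the endothelium set at day 4 and 910 CPM at day 5, against 20 CPM in other cells and 0.654 CPM in pluripotency cells at day 5. It had a UMI in 60.9% of endothelium cells (interval 53.7% to 67.8%) and in 0.641% of pluripotency cells. Ecscr, no marker of the set, went from 3.4 to 182 CPM. Krt8, in contrast, rose in other cells (121 and 498 CPM) and in endoderm cells (536 and 1087 CPM) and had 136 and 124 CPM in endothelium cells. Vim rose in other cells (441 and 1351 CPM) and endothelium cells (431 and 2348 CPM) and had 209 and 199 CPM in pluripotency cells. The Hox list was lowered in pluripotency cells, where 15 of 24 compared genes fell past 2-fold and none rose, against 7.77% of all genes lowered there, while in other cells 2 of 28 fell, where 5.92% of all genes did, and 5 rose. No test of these differences between sets was possible.

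The direction of change also followed the length of the transcript. Over 11752 protein-coding genes divided by length into 8 bins, the median log2 ratio went stepwise from 0.25 in the shortest (204 to 1577 bases) to -0.28 in the longest (6435 bases and more). The share of raised genes fell over the same bins from 17.6% to 5.11% and the share of lowered genes went from 4.36% to 9.87%. Spearman's rho across these genes was -0.27 with length, 0.04 with GC content and -0.10 with mean CPM, as a description, since genes of 1 pair of libraries are not independent. Its part in the gene results was not tested. Set against the median of genes of like length, the list medians were -0.81 for glycolysis, 1.17 for p53 targets, 0.93 for the antioxidant list, 2.04 for the germline list and -2.78 for the streak list, so these kept their directions, while nuclear oxidative phosphorylation went from 0.13 to -0.06.

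**Figure D5:**
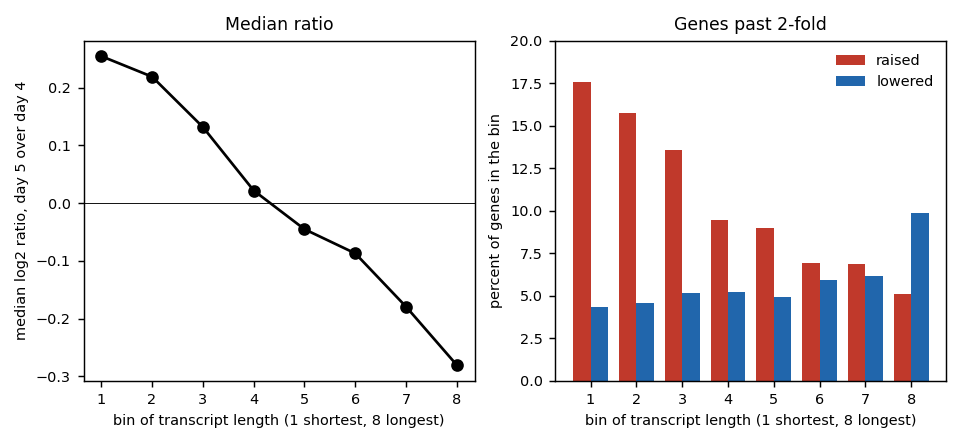
Left, median log2 ratio of CPM (day 5 over day 4) in 8 bins of transcript length, from the shortest to the longest, for 11752 protein-coding genes; right, the percent of genes in each bin that were raised (red) or lowered (blue). The median passes from 0.25 to -0.28 and the raised share from 17.6% to 5.11%.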

How the data were processed

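Single-cell RNA-seq libraries of 4 days (10x Genomics Chromium 3′) were deposited as gene-by-barcode tables of UMI counts. The authors made these counts from their reads with Cell Ranger 3.1.0 on mm10, per the submitters' processing notes, and barcodes had already been called as cells. The header of the day 11 counts names a later version, and its part in the day 11 levels was not tested. Cells were kept at 2000 or more UMIs and under 20% mt- UMIs. Doublets were not removed in the values reported.

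Counts were summed per gene and library and divided by the library total (CPM). Ratios are plain quotients without pseudocount, with exact 95% intervals for counting error. With 1 library per day no test was made. Genes needed a mean of 1 CPM to be compared. The members and gene lists were chosen with earlier results of these data known, and 9 lists and 2 alternatives were added after the values were seen. Genes were named as the 15 highest and 15 lowest ratios at a mean of 10 CPM, the 8 largest differences each way and, per list, up to 6 members past 2-fold and 2 within it, with all heart field, streak and pluripotency members; genes of added lists and Cdh5, Ctla2b, Ftl1, Fgf18, Cdh11, Tnnt2, Etv2, Hoxc5, Plod2, Rarg and Fos were chosen after their values were seen. A few genes that the rule names are not reported here. Transcript lengths came from GENCODE M21 and promoters from RefSeq. Python 3.11.15, numpy 2.4.6, scipy 1.17.1 and pandas 2.3.3 were used, and the code was tested on simulated data. Alternatives were other cell filters, doublet removal, scalings, pseudocounts, fold and expression limits, depths of thinning, cells without markers and transcript length.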

Additional observations from a re-analysis of the deposited data

How the results depend on the processing

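The counts of raised and lowered genes depended mainly on where limits were set. With a pseudocount of 10 CPM there were 211 raised and 106 lowered genes, with a mean of at least 10 CPM 453 and 303, at a fold limit of 1.5 2699 and 2019, at 4 435 and 122, and over any gene with a UMI 5684 and 3047. Other alternatives kept both counts within 1.5 times of 1456 and 722: all barcodes, a stricter cell filter, removal of the 8% highest doublet scores, per-cell means, 2 other scalings, a pseudocount of 1 CPM (1046 and 491), leaving out marker cells (1501 and 724) and transcript length (1172 and 651), the last 2 chosen after seeing the data. The 2 other scalings shifted log2 ratios by -0.02 and -0.03 and the raised share of all calls from 66.9% to 65.3% and 64.2%. Of 495 gene values followed, 7 to 413 moved beyond their counting interval under an alternative; up to 22, none of them past 2-fold as reported, changed sign (22 relative to length, 15 without marker cells, 10 with per-cell means). Relative to genes of like length, 27 of 48 list medians moved past the spread allowed for them and 5 changed sign; leaving out marker cells moved 10 and changed the sign of none, and per-cell means moved 8 and changed 2. Thinning to 3000 or 10000 UMIs moved 880 and 905 of 990 shares of cells. No paired analysis was possible because each day has 1 library. Counting depth limits only genes with few UMIs, and the spread between gastruloid batches is unknown.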
